A study of Homo sapiens with 60 samples.

Results

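The 9 genes described here are ID1, ID2, ID3 and ID4, the SMAD genes SMAD6, SMAD7 and SMAD9, the secreted antagonist GREM1 and the homeobox gene DLX3. They were picked out by symbol, each through its Ensembl identifier, from 60675 gene rows, and all 9 passed the filter on low counts that left 17190 genes. The set was put together because ID2, ID3, SMAD9 and DLX3 were seen to fall with some extracts. The values of those 4 genes are therefore a description, with no test. GREM1 in Bupleuri Radix at the high dose, whose rise was known, is likewise a description, against vehicle and against its own low dose. ID1, ID4, SMAD6, SMAD7 and otherwise GREM1 were tested.

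SW1783 is an established human astrocytoma line, and mRNA was sequenced after 24 h of treatment. The treated groups were Citri Unshius Pericarpium (mandarin peel), Cimicifugae Rhizoma (Cimicifuga rhizome), Bupleuri Radix (Bupleurum root), Aconiti Lateralis Radix Preparata (processed aconite root), and the multi-herb formulas Yijung-tang, Banhasasim-tang and Bojungikgi-tang, each as a water extract at 20, 100 and 500 µg/mL, called the low, medium and high dose. Vehicle cells received DMSO, at 0.1% per the sample labels, which name no DMSO for the water extracts, so against vehicle this difference and the treatment cannot be told apart. Each extract and dose had 3 libraries, as did the vehicle, except Bojungikgi-tang with 1 library per dose, which gave 60 libraries. The sample codes place Citri Unshius Pericarpium with Cimicifugae Rhizoma (set 5), Bupleuri Radix with Aconiti Lateralis Radix Preparata (set 6), Yijung-tang with Banhasasim-tang (set 7), Bojungikgi-tang alone (set 8) and the vehicle apart (B1). The labels do not explain these codes. Between any extract and vehicle, the set and the treatment cannot be told apart, whereas the doses of an extract, and both extracts of a set, share a set.

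Totals ran from 18.9 to 36.4 M counts per library. Of the 11 astrocyte genes listed, VIM, GJA1, SOX9, SLC1A3 and NES were measured well. GFAP stayed at or under 0.258 CPM, S100B at or under 0.414 CPM and AQP4 at or under 0.092 CPM in every library. The same held for ALDH1L1 (at most 0.0928 CPM), SOX2 (at most 0.0938 CPM) and SLC1A2 (at most 0.634 CPM). All 5 fibroblast genes listed were over 1 CPM, with a summed level between 1430 and 5810 CPM. By the median library, 3 of 6 neuron, 2 of 6 epithelium and 2 of 4 immune cell genes were too. So was 1 of 5 oligodendrocyte genes, and 0 of 3 endothelium genes. Cimicifugae Rhizoma high replicate 3 and Citri Unshius Pericarpium low replicate 3 stood apart from their groups, with deviations (root mean square over genes, log2) of 0.184 and 0.178, against at most 0.147 in the other libraries. Mitochondrial transcripts made up 8.99 to 9.29% of counts with Aconiti Lateralis Radix Preparata at the high dose and 10.6 to 10.8% at the medium dose, against 5.03 to 5.29% in vehicle. The part of these shares in the results below was not tested.

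Bone morphogenetic proteins (BMPs) are secreted ligands that bind paired serine/threonine kinase receptors, which phosphorylate SMAD1, SMAD5 and SMAD9. These join SMAD4 and enter the nucleus, where the ID genes are among the most direct targets. ID proteins are helix-loop-helix proteins without a DNA-binding region, and they bind E proteins and keep them off DNA. SMAD6 and SMAD7 are inhibitory SMADs whose own transcription is raised by BMP or TGF-beta signalling, which closes a feedback loop, and GREM1 binds BMP ligands outside the cell. In brain, BMP signals steer neural progenitors towards the astrocyte fate.

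The promoters of ID1, ID2, ID3 and SMAD6 are shown because these genes are known direct targets of BMP-activated SMADs, with GREM1, which went the other way, beside them. Each sequence is from RefSeq (GRCh38.p14) and runs 5′ to 3′ on the gene's strand, from 250 bases before to 50 bases after the start site. Entries were found for 8 of the 9 members, all but DLX3. Only the first entry of a gene was searched, and SMAD7 had 3 entries and GREM1 had 2. Capitals mark matches on either strand of GGAGCC (also read as GGCTCC) and GGCGCC, GC-rich letters that BMP-activated SMADs are known to bind, of GTCTAGAC, the palindromic SMAD box, and of TATAAA. Where TATAAA matches on both strands overlap, as in ID1, their capitals run together.
ID1, chr20:31605039-31605338, plus strand: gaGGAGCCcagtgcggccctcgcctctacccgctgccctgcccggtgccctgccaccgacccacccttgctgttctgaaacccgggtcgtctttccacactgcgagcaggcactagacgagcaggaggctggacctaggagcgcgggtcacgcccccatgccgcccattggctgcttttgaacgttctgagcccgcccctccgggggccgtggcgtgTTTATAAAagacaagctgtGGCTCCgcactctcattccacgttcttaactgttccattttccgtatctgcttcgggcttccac
ID2, chr2:8681806-8682105, plus strand: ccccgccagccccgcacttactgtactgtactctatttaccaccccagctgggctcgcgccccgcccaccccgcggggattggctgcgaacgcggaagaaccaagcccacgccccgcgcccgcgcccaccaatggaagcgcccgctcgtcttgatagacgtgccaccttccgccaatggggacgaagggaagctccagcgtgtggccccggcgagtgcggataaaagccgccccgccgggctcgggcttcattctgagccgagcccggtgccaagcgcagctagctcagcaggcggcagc
ID3, chr1:23559452-23559751, minus strand: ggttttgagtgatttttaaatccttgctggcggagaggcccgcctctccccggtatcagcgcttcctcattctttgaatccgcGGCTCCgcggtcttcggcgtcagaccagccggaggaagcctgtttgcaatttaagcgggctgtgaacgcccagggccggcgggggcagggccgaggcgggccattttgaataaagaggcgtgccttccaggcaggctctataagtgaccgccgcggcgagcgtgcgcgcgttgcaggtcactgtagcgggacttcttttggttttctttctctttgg
SMAD6, chr15:66701986-66702285, plus strand: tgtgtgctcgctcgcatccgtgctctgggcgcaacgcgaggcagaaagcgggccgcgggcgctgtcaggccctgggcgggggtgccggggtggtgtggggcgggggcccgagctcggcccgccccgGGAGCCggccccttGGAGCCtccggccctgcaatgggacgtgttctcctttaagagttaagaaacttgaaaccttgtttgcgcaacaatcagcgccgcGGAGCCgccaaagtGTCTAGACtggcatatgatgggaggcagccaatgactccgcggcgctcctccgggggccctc
GREM1, chr15:32717754-32718053, plus strand: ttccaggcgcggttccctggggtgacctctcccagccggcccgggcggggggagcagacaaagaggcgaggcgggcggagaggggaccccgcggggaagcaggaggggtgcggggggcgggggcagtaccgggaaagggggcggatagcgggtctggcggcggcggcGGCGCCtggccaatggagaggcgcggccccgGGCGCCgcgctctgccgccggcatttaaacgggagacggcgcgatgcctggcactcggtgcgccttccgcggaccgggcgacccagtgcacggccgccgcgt
Of 35116 RefSeq promoters of this length, 36.0% held GGAGCC, 19.2% GGCGCC, 11.5% TATAAA and 0.202% GTCTAGAC. GGAGCC occurred 3 times in SMAD6, 2 times in ID1 and 1 time in ID3, and the ID2 window held none of the 4 motifs. Of the members whose windows are not printed, SMAD9 held GGAGCC 3 times, and ID4 held GGAGCC 2 times and TATAAA 1 time. The SMAD7 window searched held none of the 4, which does not speak for its other entries or for the sequence outside the window. SMAD6 also held GTCTAGAC, starting at position -12 from the start site. GREM1 held GGCGCC 2 times, at -83 and -52. The matches are letters only, and no binding was measured.

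Read as CPM (counts scaled to library size, with TMM factors) per kb of exon, the vehicle levels were ordered ID1, ID3, ID2, SMAD7, DLX3, ID4, SMAD6, GREM1 and SMAD9. ID1 averaged 220.0 ± 9.27 and ID3 130.0 ± 3.11 CPM per kb, ID2 12.6 ± 0.689, SMAD7 4.54 ± 0.431 and DLX3 2.93 ± 0.307 (SD, n = 3). ID4 at 1.94 ± 0.154 and SMAD6 at 1.78 ± 0.186 lay within their spread of each other, as did GREM1 at 1.05 ± 0.0302 and SMAD9 at 0.953 ± 0.147. On the GENCODE annotation of GRCh38, the members lie at chr20:31605283-31606515 (ID1), chr2:8678845-8684453 (ID2), chr1:23557918-23559794 (ID3), chr6:19837386-19840684 (ID4), chr15:66702228-66782848 (SMAD6), chr18:48919853-48952052 (SMAD7), chr13:36844831-36920765 (SMAD9), chr15:32717974-32745107 (GREM1) and chr17:49990005-49995224 (DLX3), and all are protein-coding. The annotated starts of ID2, ID3, SMAD7 and SMAD9 lie upstream of the RefSeq windows searched. The level of GREM1 per kb depends on an annotated exon length of 14606 bp. Overlapping genes lie on the other strand of ID2 (ID2-AS1), ID4 (AL022068.1) and GREM1 (AC090877.2), and since the strand setting of the counting is not given, reads of such pairs may not have been told apart. Genes annotated within introns on the same strand overlap SMAD6 (AC013564.1) and SMAD9 (SMAD9-IT1). No strand setting separates those, only their position in introns.

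**Figure D1:**
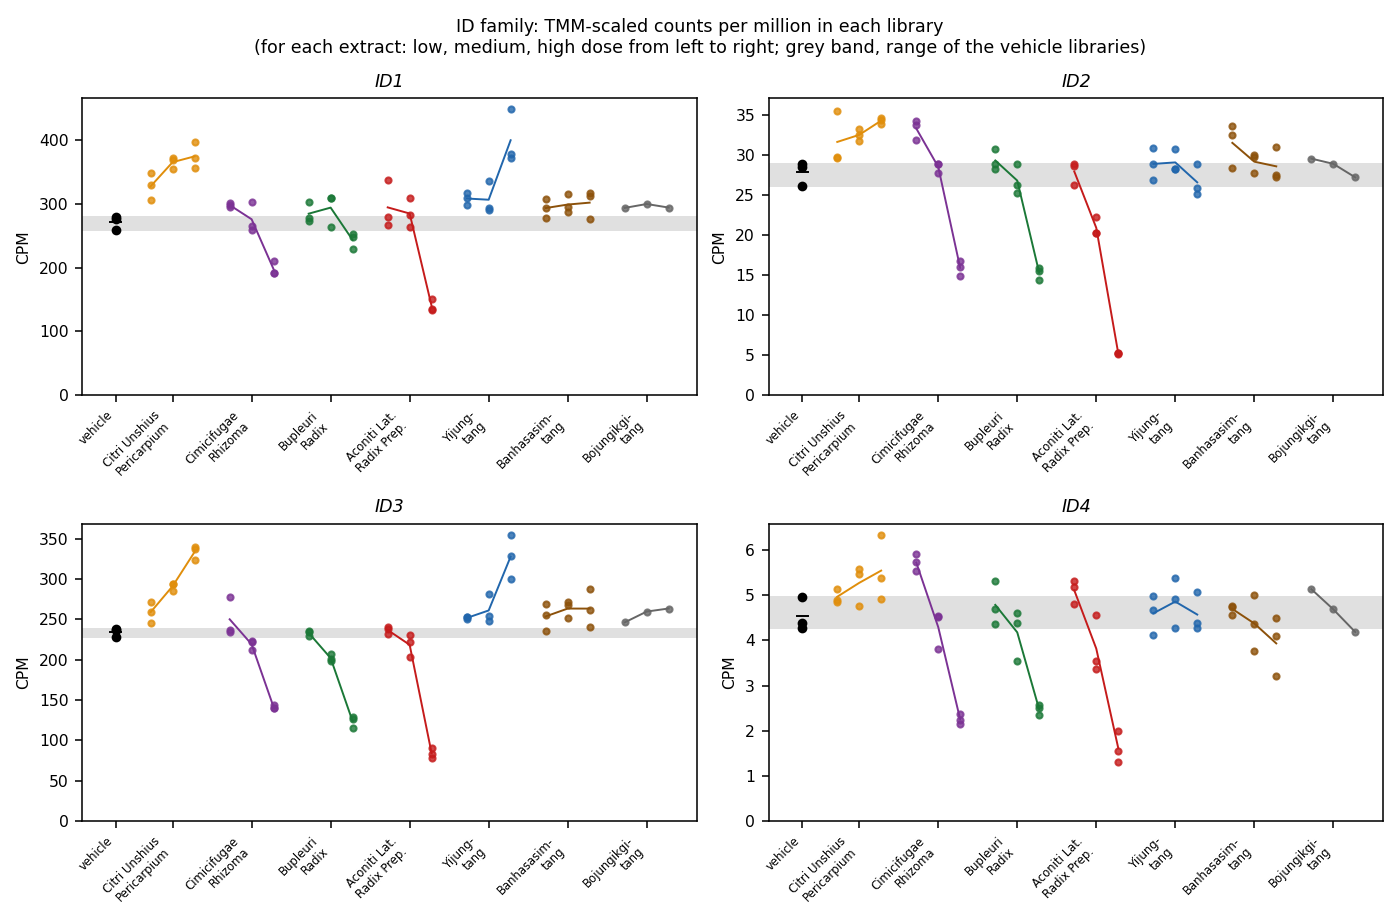
CPM of ID1, ID2, ID3 and ID4 (y axis) in every library, with the vehicle at the left and the low, medium and high dose of each extract from left to right. Points are libraries, lines join group means, and the grey band is the vehicle range. The high-dose points of Cimicifugae Rhizoma, Bupleuri Radix and Aconiti Lateralis Radix Preparata lie below the vehicle band for all 4 genes. ID2 and ID3 were chosen for their fall, and the share of all genes clear of the vehicle range was not counted.

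ID2, an inhibitor of E proteins in neural and lymphoid cells, was lowest with Aconiti Lateralis Radix Preparata at the high dose, at 5.29, 5.29 and 5.20 CPM, against 28.9, 28.5 and 26.1 CPM in vehicle. All 3 high-dose libraries lay below all vehicle libraries, with a log2 fold change of -2.41 (SE 0.0899), or 5.30-fold lower. Across the doses of this extract, ID2 was 28.6, 28.9 and 26.3 CPM at the low dose, 20.3, 20.2 and 22.2 CPM at the medium dose, and about 5 CPM at the high dose. The low dose overlapped the vehicle range and the medium dose did not. Cimicifugae Rhizoma at the high dose gave 14.9, 16.1 and 16.8 CPM, and Bupleuri Radix at the high dose 15.6, 15.9 and 14.4 CPM. Both stood below the vehicle, with log2 fold changes of -0.81 (SE 0.0715) for Cimicifugae Rhizoma and -0.86 (SE 0.0726) for Bupleuri Radix. Citri Unshius Pericarpium at the high dose gave 33.8, 34.7 and 34.4 CPM, above all vehicle libraries, with a log2 fold change of 0.30 (SE 0.0655). Its low-dose libraries, at 29.7 to 35.6 CPM, also lay above the vehicle and overlapped the high dose (high against low 0.12, SE 0.064). Yijung-tang at the high dose, between 25.1 and 28.9 CPM, and Banhasasim-tang, between 27.3 and 31.0 CPM, overlapped the vehicle.

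ID3, the second most abundant member per kb, was 83.4, 77.9 and 90.6 CPM with Aconiti Lateralis Radix Preparata at the high dose, 127, 115 and 129 CPM with Bupleuri Radix and 144, 140.3 and 139.8 CPM with Cimicifugae Rhizoma. The vehicle libraries held 236.5, 238.4 and 227.9 CPM, so none of these groups overlapped it. The log2 fold changes against vehicle were -1.48 (SE 0.0629) for Aconiti Lateralis Radix Preparata, -0.92 (SE 0.0605) for Bupleuri Radix and -0.73 (SE 0.0598) for Cimicifugae Rhizoma. In the opposite direction, ID3 reached 337, 324 and 340 CPM with Citri Unshius Pericarpium and 329, 301 and 355 CPM with Yijung-tang at the high dose. Both groups lay above the vehicle, with log2 fold changes of 0.51 (SE 0.0582) for Citri Unshius Pericarpium and 0.48 (SE 0.0583) for Yijung-tang. For Citri Unshius Pericarpium the group mean was higher at each higher dose: the low-dose libraries held 259, 272 and 246 CPM and the medium-dose libraries 294, 294 and 285 CPM.

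ID1, the most abundant member, fell with 2 extracts and rose with 2 others at the high dose. With Aconiti Lateralis Radix Preparata it was 135, 133 and 151 CPM, against 258, 276 and 279.9 CPM in vehicle, a log2 fold change of -0.96 (SE 0.0776, edgeR adjusted p = 2.67e-15). Cimicifugae Rhizoma gave 192, 209.6 and 191 CPM (log2 fold change -0.46, SE 0.0755, adjusted p = 3.94e-06). No library of either group reached the vehicle range. With Citri Unshius Pericarpium ID1 was 396, 371 and 356 CPM (log2 fold change 0.46, SE 0.0744, adjusted p = 4.12e-06), and with Yijung-tang 378, 371 and 449 CPM (0.56, SE 0.0745, adjusted p = 5.64e-08). All of these libraries lay above the vehicle. Bupleuri Radix, at 252, 229.5 and 248 CPM, also lay below the vehicle in every library, but the change of -0.16 (SE 0.0751) did not pass the test (adjusted p = 0.247). It did when fitted with only the groups compared (adjusted p = 0.00816) or with no filter on low counts (adjusted p = 0.00935). The same held for Banhasasim-tang (0.15, adjusted p = 0.163), with adjusted p-values of 0.0205 and 0.000818 under those settings.

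ID4, which has been linked to stem-like growth in glioma, was low, and its values rest on small counts. It was 1.55, 1.3 and 2.00 CPM with Aconiti Lateralis Radix Preparata at the high dose, against 4.28, 4.95 and 4.396 CPM in vehicle (log2 fold change -1.49, SE 0.155, adjusted p = 7.12e-12). Cimicifugae Rhizoma gave 2.14, 2.37 and 2.24 CPM (-1.02, SE 0.14, adjusted p = 9.14e-08) and Bupleuri Radix 2.34, 2.51 and 2.56 CPM (-0.88, SE 0.139, adjusted p = 9.55e-06). The 3 groups lay below the vehicle without overlap. With Citri Unshius Pericarpium, Yijung-tang and Banhasasim-tang, ID4 did not pass the test, and the log2 fold changes were 0.28, 0.00 and -0.20.

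**Figure D2:**
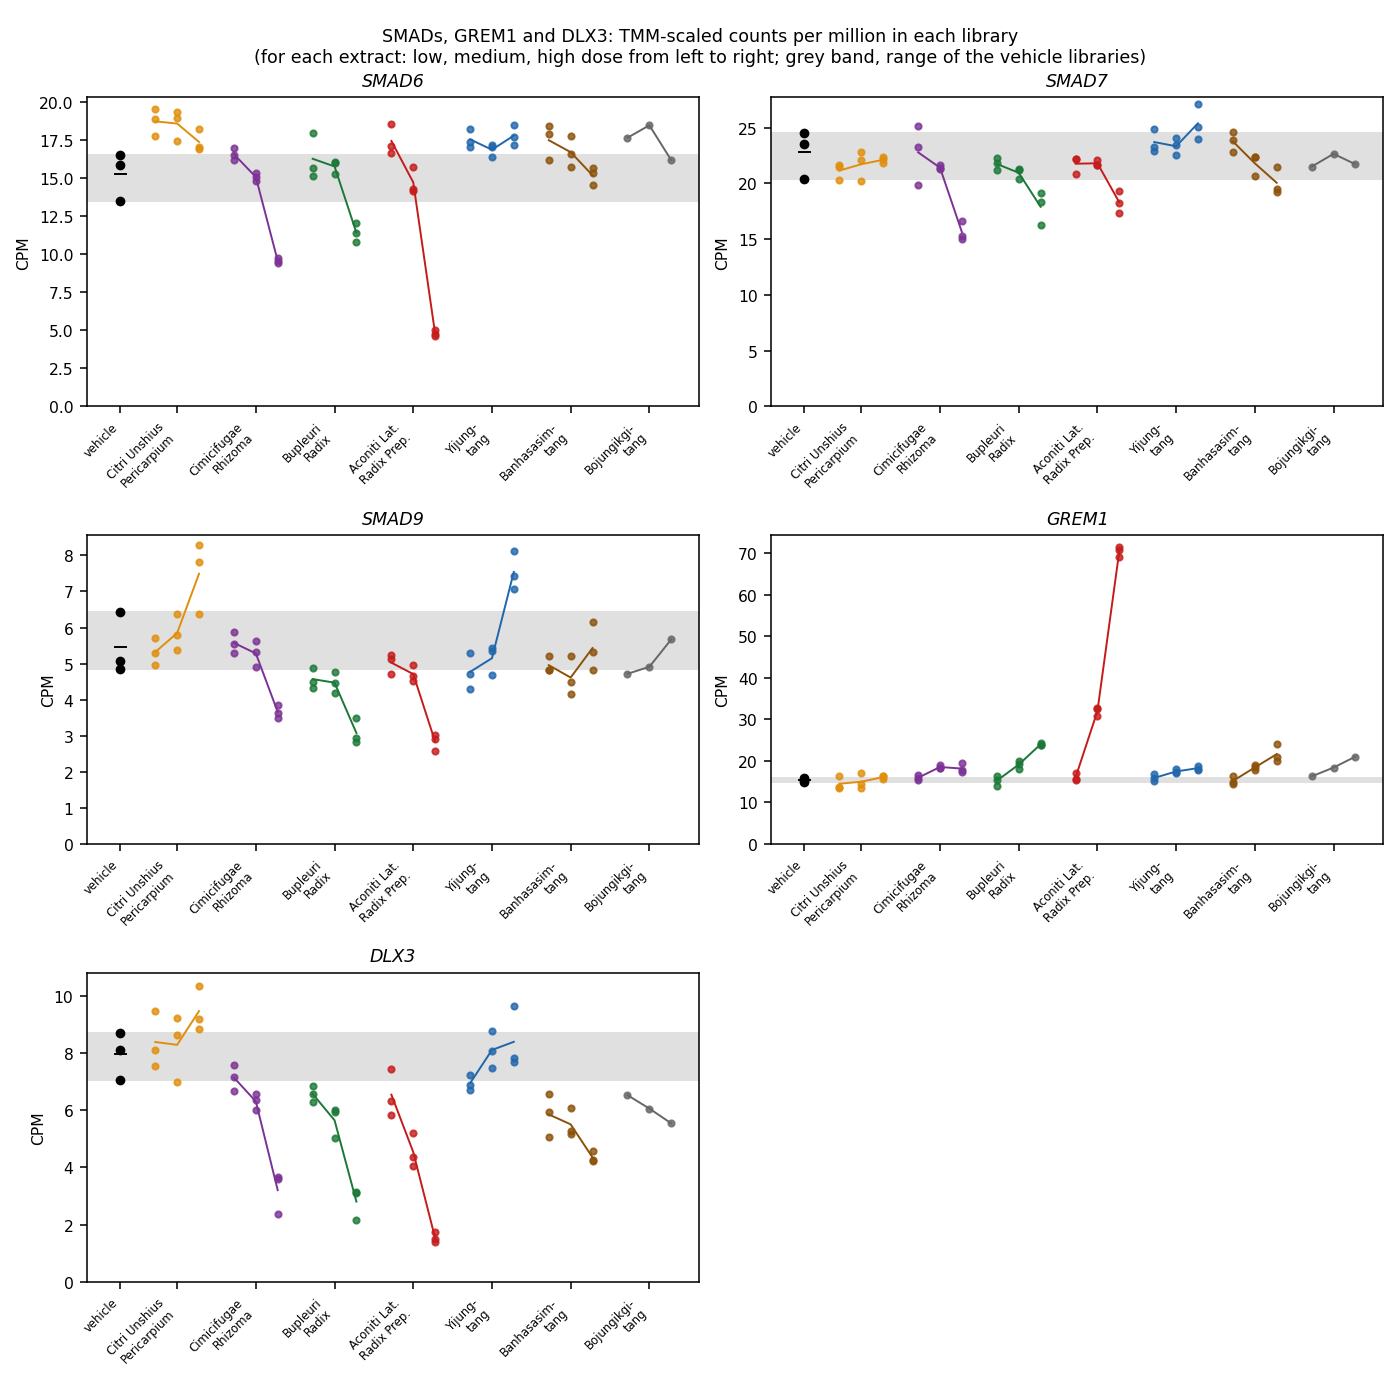
CPM of SMAD6, SMAD7, SMAD9, GREM1 and DLX3 (y axis) in every library, laid out as for the ID genes. Points are libraries, lines join group means and the grey band is the vehicle range. GREM1 with Aconiti Lateralis Radix Preparata at the high dose, at 69.1 to 71.4 CPM, stands far above the vehicle, while DLX3 lies at 1.39 to 1.73 CPM there.

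Among the SMADs, SMAD6, the inhibitory SMAD that acts chiefly on BMP receptors, was 4.602, 4.75 and 5.01 CPM with Aconiti Lateralis Radix Preparata at the high dose, against 13.5, 15.9 and 16.5 CPM in vehicle. This was 3.19-fold lower (log2 fold change -1.67, SE 0.0817, adjusted p = 1.46e-23). It also fell with Cimicifugae Rhizoma, to 9.52, 9.73 and 9.44 CPM (-0.68, SE 0.0691, adjusted p = 5.19e-11), and with Bupleuri Radix, to 12.04, 10.8 and 11.4 CPM (-0.42, SE 0.0678, adjusted p = 1.48e-05). All 3 groups were clear of the vehicle range. SMAD6 rose slightly with Citri Unshius Pericarpium (0.18, SE 0.0636, adjusted p = 0.0316) and with Yijung-tang (0.21, SE 0.0639, adjusted p = 0.00767). Without vehicle replicate 1, the lowest vehicle library, neither was called (0.11, adjusted p = 0.308, for Citri Unshius Pericarpium and 0.14, adjusted p = 0.136, for Yijung-tang). The first was also lost without Citri Unshius Pericarpium high replicate 1 (0.15, adjusted p = 0.152), in DESeq2 (adjusted p = 0.0747) and with no filter on low counts (adjusted p = 0.129). Fitted with only the groups compared, both were lost (adjusted p = 0.0627 for Citri Unshius Pericarpium and 0.0561 for Yijung-tang).

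SMAD7, which inhibits both BMP and TGF-beta receptors, changed less. It was 18.2, 17.4 and 19.3 CPM with Aconiti Lateralis Radix Preparata at the high dose, 16.6, 15.0 and 15.3 CPM with Cimicifugae Rhizoma and 19.1, 18.3 and 16.2 CPM with Bupleuri Radix, against 20.4, 23.6 and 24.5 CPM in vehicle. The groups did not overlap the vehicle. The falls were -0.32 (SE 0.0674, adjusted p = 5.28e-05), -0.55 (SE 0.0669, adjusted p = 7.12e-09) and -0.35 (SE 0.0662, adjusted p = 0.000229) on the log2 scale, in that order of extracts. A fall with Banhasasim-tang (-0.19, adjusted p = 0.0295) overlapped the vehicle range. It did not pass without vehicle replicate 2 (-0.16) or 3 (-0.14, adjusted p = 0.21), or without Banhasasim-tang high replicate 1 (-0.16) or 2 (-0.17), nor with no filter on low counts (adjusted p = 0.103) or with only the groups compared (adjusted p = 0.0643). With Citri Unshius Pericarpium and Yijung-tang, SMAD7 did not pass the test (log2 fold changes -0.05 and 0.15), though the second passed without vehicle replicate 3 (0.20, adjusted p = 0.0289) or without Yijung-tang high replicate 2 (0.20, adjusted p = 0.0296).

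SMAD9, a receptor-regulated SMAD that carries the BMP signal and is itself induced by it, was 2.59, 2.91 and 3.02 CPM with Aconiti Lateralis Radix Preparata at the high dose, 3.49, 2.82 and 2.93 CPM with Bupleuri Radix and 3.63, 3.86 and 3.50 CPM with Cimicifugae Rhizoma, against 5.08, 6.42 and 4.86 CPM in vehicle. None of these overlapped the vehicle, and the log2 fold changes were -0.94 (SE 0.123), -0.83 (SE 0.118) and -0.58 (SE 0.113) in the same order. With Yijung-tang SMAD9 was 7.41, 8.13 and 7.08 CPM, above the vehicle, and with Citri Unshius Pericarpium 8.27, 6.38 and 7.82 CPM, overlapping it slightly. Both log2 fold changes were 0.46.

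DLX3, a Distal-less homeobox factor of skin, bone and placenta, had the lowest fold change of the members with Cimicifugae Rhizoma and Bupleuri Radix. At the high dose it was 1.73, 1.39 and 1.48 CPM with Aconiti Lateralis Radix Preparata, 3.09, 2.17 and 3.16 CPM with Bupleuri Radix, 3.67, 2.37 and 3.58 CPM with Cimicifugae Rhizoma and 4.25, 4.21 and 4.58 CPM with Banhasasim-tang, against 8.10, 8.70 and 7.05 CPM in vehicle. All lay below the vehicle, with log2 fold changes of -2.39 (SE 0.162), -1.51 (SE 0.139), -1.303 (SE 0.134) and -0.88 (SE 0.125). With Banhasasim-tang, DLX3 lay below the vehicle whereas ID2 and SMAD9 overlapped it and ID3, at 241 to 288 CPM, lay above it (log2 fold change 0.17, SE 0.0582). Part of the DLX3 difference was present at the low dose, with log2 fold changes of -0.44 (SE 0.119) for Banhasasim-tang and -0.28 for both set 6 extracts (SE 0.123 for Aconiti Lateralis Radix Preparata and 0.121 for Bupleuri Radix). The low-dose libraries of Banhasasim-tang, up to 6.57 CPM, and of Bupleuri Radix, up to 6.85 CPM, lay below the vehicle, and those of Aconiti Lateralis Radix Preparata overlapped it. Low-dose values of Yijung-tang (-0.20, SE 0.116) and Cimicifugae Rhizoma (-0.16, SE 0.12) were also negative, with overlap. That of Citri Unshius Pericarpium was 0.07 (SE 0.117). Yijung-tang at the high dose showed no fall (0.07, SE 0.117). Whether the vehicle's separate set plays a part was not tested.

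GREM1, a secreted antagonist of BMP2 and BMP4, went the other way. With Aconiti Lateralis Radix Preparata at the high dose it was 69.1, 71.4 and 70.7 CPM, against 15.4, 15.8 and 14.9 CPM in vehicle, a 4.57-fold rise (log2 fold change 2.19, SE 0.0613, adjusted p = 1.74e-33). The medium dose gave 32.6, 30.7 and 32.6 CPM, which is 2.07-fold (log2 fold change 1.05, SE 0.066) and clear of both neighbours. The low dose, at 15.4, 15.6 and 17.1 CPM, overlapped the vehicle. GREM1 was 24.3, 23.9 and 23.8 CPM with Bupleuri Radix at the high dose (log2 fold change against vehicle 0.64, SE 0.0673, with no test). Against its own low dose, at 16.3, 15.4 and 14.0 CPM, this was a rise of 0.65 (SE 0.0666). No p-value is given there either, since the rise was known when GREM1 was chosen. Banhasasim-tang at the high dose gave 24.0, 20.9 and 20.0 CPM (0.49, SE 0.067, adjusted p = 1.54e-07). Smaller rises were called with Yijung-tang (0.25, adjusted p = 0.00562) and Cimicifugae Rhizoma (0.24, adjusted p = 0.00596), the second of which was lost without Cimicifugae Rhizoma high replicate 3 (0.19, adjusted p = 0.0585), a library that stood apart. Citri Unshius Pericarpium did not pass (0.06, adjusted p = 0.576).

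The single Bojungikgi-tang library at the high dose held 294 CPM of ID1, 27.2 CPM of ID2, 264 CPM of ID3 and 4.19 CPM of ID4. It held 16.2 CPM of SMAD6, 21.7 CPM of SMAD7, 5.67 CPM of SMAD9, 21.0 CPM of GREM1 and 5.54 CPM of DLX3. ID2, SMAD6, SMAD7 and SMAD9 lay within the vehicle range, ID1, ID3 and GREM1 above it and ID4 and DLX3 below it. That range is of 3 libraries, and the share of all genes outside it was not counted, so no result is read from these positions. There was no replicate check.

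**Figure D3:**
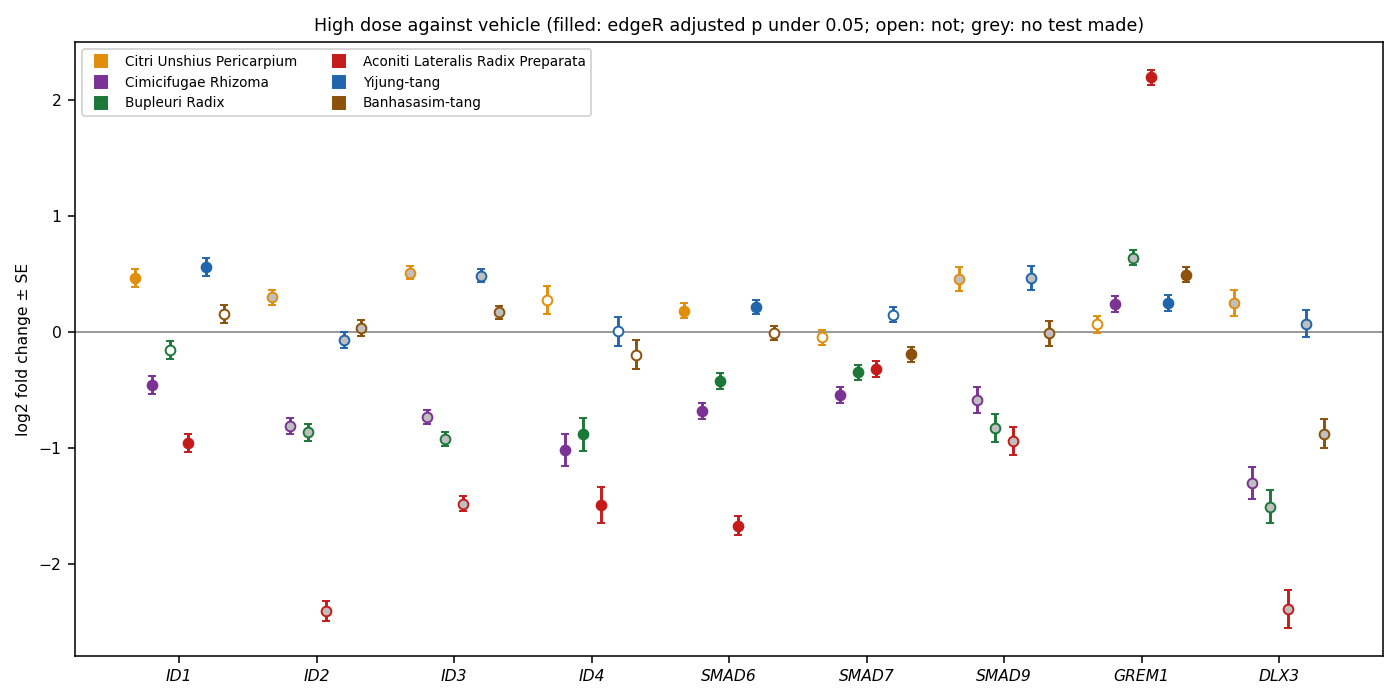
Log2 fold change ± SE of the 9 members at the high dose against vehicle, by extract (3 libraries against 3). Filled points passed the test, open points did not and grey points had no test. Aconiti Lateralis Radix Preparata lies lowest for every ID gene, SMAD6, SMAD9 and DLX3 and highest for GREM1, at 2.19.

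Of the 5 tested members, Aconiti Lateralis Radix Preparata at the high dose changed all 5 against vehicle, beside 60.4% of all genes tested. Cimicifugae Rhizoma changed all 5 (32.5% of all genes), and Bupleuri Radix changed ID4, SMAD6 and SMAD7 of the 4 tested there (7.02%). Citri Unshius Pericarpium changed ID1 and SMAD6 (21.6%), Yijung-tang ID1, SMAD6 and GREM1 (32.0%), and Banhasasim-tang SMAD7 and GREM1 (16.8%). With Aconiti Lateralis Radix Preparata so many genes moved that a call there is no mark of these genes.

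Within an extract, high against low dose, the comparison in which the set is shared, ID1, ID4, SMAD6, SMAD7 and GREM1 were all called with Aconiti Lateralis Radix Preparata (57.8% of all genes) and with Cimicifugae Rhizoma (25.1%). SMAD6 was lower by -1.86 (SE 0.0803, adjusted p = 1.19e-25) at the high dose of Aconiti Lateralis Radix Preparata. ID4 with Cimicifugae Rhizoma changed by -1.35 (SE 0.134, adjusted p = 4.49e-11). The GREM1 rise with Cimicifugae Rhizoma was small (0.19, adjusted p = 0.0365) and was not called without both libraries that stood apart (0.13, adjusted p = 0.193), without the low replicate 1 (0.16) or 2 (0.18) or the high replicate 3 (0.14, adjusted p = 0.228) of that extract, in DESeq2 (adjusted p = 0.0595), with no filter on low counts (adjusted p = 0.0756) or with only the groups compared (adjusted p = 0.127). Bupleuri Radix changed ID4 (-0.96), SMAD6 (-0.51) and SMAD7 (-0.28), beside 4.37% of all genes. The GREM1 value for Bupleuri Radix (0.65) is a description and is not counted. ID1 there, at -0.23 (adjusted p = 0.0768), did not pass, but did with no filter on low counts (adjusted p = 6.83e-06), with only the groups compared (adjusted p = 0.000591) and without both libraries that stood apart (adjusted p = 0.0494). Its SMAD7 fall was not called without Bupleuri Radix high replicate 3 (-0.21, adjusted p = 0.0902).

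ID1 rose between the low and high dose of Yijung-tang (0.37, SE 0.0736, adjusted p = 0.000129), beside 21.7% of all genes. GREM1 there was 0.20 higher (adjusted p = 0.029), and lost its call without Yijung-tang low replicate 2 (0.16, adjusted p = 0.135) or 3 (0.19), or high replicate 1 (0.20) or 3 (0.17), with no filter on low counts (adjusted p = 0.0941) and with only the groups compared (adjusted p = 0.0578). With Banhasasim-tang, 6.67% of all genes were called, and among the members GREM1 rose (0.51, SE 0.0642, adjusted p = 4.69e-08) while SMAD6 (-0.20, adjusted p = 0.0326) and SMAD7 (-0.25, adjusted p = 0.0055) fell. SMAD6 was not called without Banhasasim-tang low replicate 1 (-0.16, adjusted p = 0.226) or 2 (-0.18), without high replicate 2 (-0.20) or 3 (-0.17), in DESeq2 (adjusted p = 0.0916), with no filter on low counts (adjusted p = 0.168) or with only the groups compared (adjusted p = 0.0875). SMAD7 was not called without high replicate 1 (-0.22, adjusted p = 0.0585). For Citri Unshius Pericarpium, with 18.2% of all genes called, no tested member was. ID1 there had a log2 fold change of 0.19 (adjusted p = 0.0606), which passed without the low replicate 2 (0.24, adjusted p = 0.0348) or the high replicate 3 (0.23, adjusted p = 0.0496), with no filter on low counts (adjusted p = 3.75e-05) and with library totals alone (adjusted p = 0.0158). GREM1 there had one of 0.15 (adjusted p = 0.131), which passed without low replicate 3, the library that stood apart (0.24, adjusted p = 0.0253), without both libraries that stood apart (adjusted p = 0.0201) and with library totals alone (adjusted p = 0.0316).

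Side by side in a set, the extracts differed. At the high dose, Citri Unshius Pericarpium over Cimicifugae Rhizoma was higher in ID1 (0.92, SE 0.0751, adjusted p = 1.77e-13), ID4 (1.296, SE 0.133, adjusted p = 2.43e-10), SMAD6 (0.86, adjusted p = 3.63e-14) and SMAD7 (0.50, adjusted p = 2e-07), beside 12.3% of all genes called. GREM1 did not pass (-0.17, adjusted p = 0.0834), except without Cimicifugae Rhizoma high replicate 2 (-0.21, adjusted p = 0.0457). The untested members had log2 differences of 1.11 (ID2), 1.24 (ID3), 1.04 (SMAD9) and 1.55 (DLX3). The difference between the high-minus-low changes of the 2 extracts was also called for ID1 (0.79, adjusted p = 8.57e-07), ID4 (1.501, adjusted p = 6.9e-08), SMAD6 (0.68, adjusted p = 8.27e-07) and SMAD7 (0.60, adjusted p = 1.09e-05), beside 11.1% of all genes.

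Bupleuri Radix over Aconiti Lateralis Radix Preparata at the high dose was higher in ID1 (0.80, adjusted p = 9.74e-13), ID4 (0.61, adjusted p = 0.00185) and SMAD6 (1.25, adjusted p = 4.25e-18) and lower in GREM1 (-1.55, SE 0.0567, adjusted p = 1.16e-28), beside 58.3% of all genes. SMAD7, at -0.03 (SE 0.0686, adjusted p = 0.747), was not found to differ. SMAD9, not tested, was 3.49, 2.82 and 2.93 CPM with Bupleuri Radix and 2.59, 2.91 and 3.02 CPM with Aconiti Lateralis Radix Preparata, which overlap. The high-minus-low changes differed for ID1 (0.85, adjusted p = 4.25e-09), ID4 (0.70, adjusted p = 0.00527), SMAD6 (1.35, adjusted p = 2.85e-15) and GREM1 (-1.48, adjusted p = 5.13e-19), beside 44.0% of all genes.

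Yijung-tang over Banhasasim-tang at the high dose was higher in ID1 (0.41, adjusted p = 3.25e-05), SMAD6 (0.22, adjusted p = 0.00513) and SMAD7 (0.34, adjusted p = 4.04e-05) and lower in GREM1 (-0.25, adjusted p = 0.0031), beside 23.8% of all genes. The GREM1 difference was lost without Banhasasim-tang high replicate 1 (-0.17, adjusted p = 0.0795), and that of SMAD6 with no filter on low counts (0.21, adjusted p = 0.0533). The high-minus-low change differed for SMAD7 (0.35, adjusted p = 0.00589), and less firmly for GREM1 (-0.31, adjusted p = 0.0216) and ID1 (0.33, adjusted p = 0.0314), beside 10.1% of all genes. The ID1 call was lost without Yijung-tang high replicate 3 (0.24, adjusted p = 0.169), low replicate 1 (0.31) or 2 (0.33), or Banhasasim-tang high replicate 1 (0.27), low replicate 2 (0.30) or 3 (0.33). The GREM1 call was lost without Banhasasim-tang high replicate 1 (-0.23, adjusted p = 0.111), low replicate 1 (-0.30) or 2 (-0.28), or Yijung-tang low replicate 1 (-0.28), and with only the groups compared (adjusted p = 0.0705). SMAD6 (0.22, adjusted p = 0.101) passed without Banhasasim-tang low replicate 3 (0.27, adjusted p = 0.0448).

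The other BMP pathway genes were followed in a list of 75, of which 53 passed the filter. With Aconiti Lateralis Radix Preparata at the high dose 46 of the 53 (86.8%) were called, 18 higher and 28 lower, beside 60.4% of all genes, with a median log2 fold change of -0.32, against 0.01 over all genes. Cimicifugae Rhizoma had 27 called (50.9%, beside 32.5% of all genes), 5 higher and 22 lower. Bupleuri Radix had 13 (24.5%, beside 7.02%), 1 higher and 12 lower. Yijung-tang had 22 (41.5%, beside 32.0%), 6 higher and 16 lower, and Banhasasim-tang 15 (28.3%, beside 16.8%), 4 higher and 11 lower. Citri Unshius Pericarpium had 11, 1 higher and 10 lower. The share for Citri Unshius Pericarpium, 20.8%, was near that over all genes, 21.6%, and it had 17 genes called without both libraries that stood apart. Fitted with only the groups compared, Citri Unshius Pericarpium had 19 and Cimicifugae Rhizoma 17. Between high and low dose, 43 were called with Aconiti Lateralis Radix Preparata (81.1%, beside 57.8% of all genes), 22 with Cimicifugae Rhizoma (41.5%, beside 25.1%) and 19 with Yijung-tang (35.8%, beside 21.7%). Bupleuri Radix had 13 (24.5%, beside 4.37%), Citri Unshius Pericarpium 12 (22.6%, beside 18.2%) and Banhasasim-tang 6 (11.3%, beside 6.67%). Cimicifugae Rhizoma had 10 and Citri Unshius Pericarpium 4 when fitted with only the groups compared, Bupleuri Radix had 8 without its high replicate 3, and Citri Unshius Pericarpium 6 without its high replicate 2.

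Of 6 tested ligands, 2 rose and 3 fell with Aconiti Lateralis Radix Preparata (83.3%, beside 60.4% of all genes). BMP4 fell with all 6 extracts against vehicle. It was 1.67, 2.42 and 1.95 CPM with Aconiti Lateralis Radix Preparata, against 10.3, 9.95 and 10.9 CPM in vehicle (log2 fold change -2.34, SE 0.119, adjusted p = 7.33e-23). With Citri Unshius Pericarpium it was 6.37, 5.44 and 6.48 CPM (-0.76, adjusted p = 1.52e-08). BMP4 was lower both with that extract, where ID1 was higher, and with Aconiti Lateralis Radix Preparata and Cimicifugae Rhizoma, where ID1 was lower. A link between these genes was not tested. GDF5, a growth factor of joints, had 16 counts in the 3 Aconiti Lateralis Radix Preparata libraries and 92 in vehicle, a ratio of 0.178 (95% interval 0.0976 to 0.305). The intervals here cover counting error only.

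Of 13 tested antagonists and modulators, 9 fell and 3 rose with Aconiti Lateralis Radix Preparata (92.3%, beside 60.4% of all genes). With Cimicifugae Rhizoma 8 fell and 1 rose (69.2%, beside 32.5%), and with Yijung-tang 7 fell and 1 rose (61.5%, beside 32.0%). Citri Unshius Pericarpium had 6 lower (46.2%, beside 21.6%). Banhasasim-tang had 2 lower and 1 higher (23.1%, beside 16.8%), and Bupleuri Radix 1 lower (7.69%, beside 7.02%). NOG (noggin) fell with Cimicifugae Rhizoma on few counts, 36 there and 65 in vehicle, a ratio of 0.466 (95% interval 0.301 to 0.711). BMPER, a modulator of BMP ligands, was higher with Banhasasim-tang (0.37, adjusted p = 6.28e-09) and lower with Citri Unshius Pericarpium (-0.35, adjusted p = 1.21e-07). It was also lower with Cimicifugae Rhizoma (-0.26) and Yijung-tang (-0.32), and its count ratio to vehicle with Aconiti Lateralis Radix Preparata was 0.58. TLL1, a protease that cleaves chordin, fell with Citri Unshius Pericarpium (-0.37), Cimicifugae Rhizoma (-0.39), Yijung-tang (-0.48) and Banhasasim-tang (-0.25). Between the high and low dose of Banhasasim-tang, TLL1 was not called (-0.05, adjusted p = 0.816). Its count ratio to vehicle was lowest with Aconiti Lateralis Radix Preparata, at 0.343 (95% interval 0.305 to 0.385). CHRDL1, a chordin relative, fell with Banhasasim-tang (-0.26, adjusted p = 0.011) and Yijung-tang (-0.25, adjusted p = 0.00784). The CHRDL1 ratio with Aconiti Lateralis Radix Preparata was 0.704. FSTL3 fell with Citri Unshius Pericarpium (-0.24, adjusted p = 3.04e-05), Cimicifugae Rhizoma (-0.29, adjusted p = 3.03e-07) and Yijung-tang (-0.17, adjusted p = 0.0017). The FSTL3 ratio with Aconiti Lateralis Radix Preparata was 0.803. DAND5 was near the floor, with 4 counts with Aconiti Lateralis Radix Preparata and 25 in vehicle (ratio 0.164, 95% interval 0.0414 to 0.474).

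Of 8 tested receptors and co-receptors, 3 rose and 4 fell with Aconiti Lateralis Radix Preparata (87.5%, beside 60.4% of all genes). With Cimicifugae Rhizoma 2 rose and 4 fell (75%, beside 32.5%). The shares were 62.5% with Yijung-tang (beside 32.0%), 50% with Banhasasim-tang (beside 16.8%), 37.5% with Bupleuri Radix (beside 7.02%) and 12.5% with Citri Unshius Pericarpium (beside 21.6%). RGMB, a BMP co-receptor, rose with Bupleuri Radix (0.57, SE 0.0583, adjusted p = 3.73e-10) and Banhasasim-tang (0.41, SE 0.0581, adjusted p = 5.15e-07). It was also called higher with Cimicifugae Rhizoma (0.22, adjusted p = 0.00284) and Yijung-tang (0.20, adjusted p = 0.00699). Between the high and low dose of Yijung-tang, RGMB was not called (0.15, adjusted p = 0.0585). Its count ratio to vehicle with Aconiti Lateralis Radix Preparata was 1.38 (95% interval 1.32 to 1.45). SMAD1, SMAD4 and SMAD5, which carry the signal, gave no call at the high dose against vehicle with any extract but Aconiti Lateralis Radix Preparata, where SMAD4 rose (0.31) and SMAD1 fell (-0.30). Between the high and low dose of that extract, 1 of these 3 genes was called, as higher, so the SMAD1 fall was not called there. SMAD1 was called higher between the doses of Cimicifugae Rhizoma (0.23, adjusted p = 0.0229) and Yijung-tang (0.20, adjusted p = 0.0483). The same held for SMAD4 with Citri Unshius Pericarpium (0.16, adjusted p = 0.0336). The shares of all genes called were 25.1, 21.7 and 18.2% in that order. Of 11 tested other BMP target genes, 8 fell and 2 rose with Aconiti Lateralis Radix Preparata (90.9%, beside 60.4% of all genes). With Bupleuri Radix 6 fell (54.5%, beside 7.02%), and with Cimicifugae Rhizoma 3 fell and 2 rose (45.5%, beside 32.5%). Yijung-tang had 3 higher (27.3%, beside 32.0%), Banhasasim-tang 2 higher and 1 lower (27.3%, beside 16.8%), and Citri Unshius Pericarpium 1 higher (9.09%, beside 21.6%). ATOH8, a basic helix-loop-helix factor that BMP signals raise, was 6.90, 6.32 and 6.82 CPM with Aconiti Lateralis Radix Preparata, against 27.7, 32.4 and 31.0 CPM in vehicle (-2.19, SE 0.0791, adjusted p = 5.99e-29). It also fell with Cimicifugae Rhizoma (-0.72, adjusted p = 1.4e-12) and Bupleuri Radix (-0.81, adjusted p = 3.75e-13). ATOH8 was above vehicle with Banhasasim-tang (0.27, adjusted p = 0.00078), but not called between its high and low dose (-0.02, adjusted p = 0.903). With Citri Unshius Pericarpium its count ratio to vehicle was 1.21 (95% interval 1.14 to 1.28), again with no call between the doses (0.08, adjusted p = 0.351). DLX2 fell with Bupleuri Radix (-0.69, adjusted p = 1.79e-07), and its count ratio to vehicle with Aconiti Lateralis Radix Preparata was 0.408. GATA2, a zinc finger factor, rose with Yijung-tang (0.41, adjusted p = 0.000128). It fell with Cimicifugae Rhizoma (-0.47, adjusted p = 5.56e-05) and Bupleuri Radix (-0.52, adjusted p = 6.8e-05). The GATA2 ratio with Aconiti Lateralis Radix Preparata was 0.425. MSX2 had 4 counts with Aconiti Lateralis Radix Preparata and 35 in vehicle (ratio 0.117, 95% interval 0.0302 to 0.327). Of the E proteins that ID proteins bind, TCF4 fell with Aconiti Lateralis Radix Preparata (-1.32, SE 0.0392, adjusted p = 2e-32), and TCF3 (0.23) and TCF12 (0.23) rose. Between its high and low dose, 1 of these 3 was called higher, 1 lower and 1 was not called. The E proteins, SMAD1, SMAD4 and ATOH8 with Aconiti Lateralis Radix Preparata, and BMP4 with Bupleuri Radix (-0.29, adjusted p = 0.036) were chosen after their values were seen. So were SMAD1 and SMAD4 between the doses of other extracts.

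**Figure D4:**
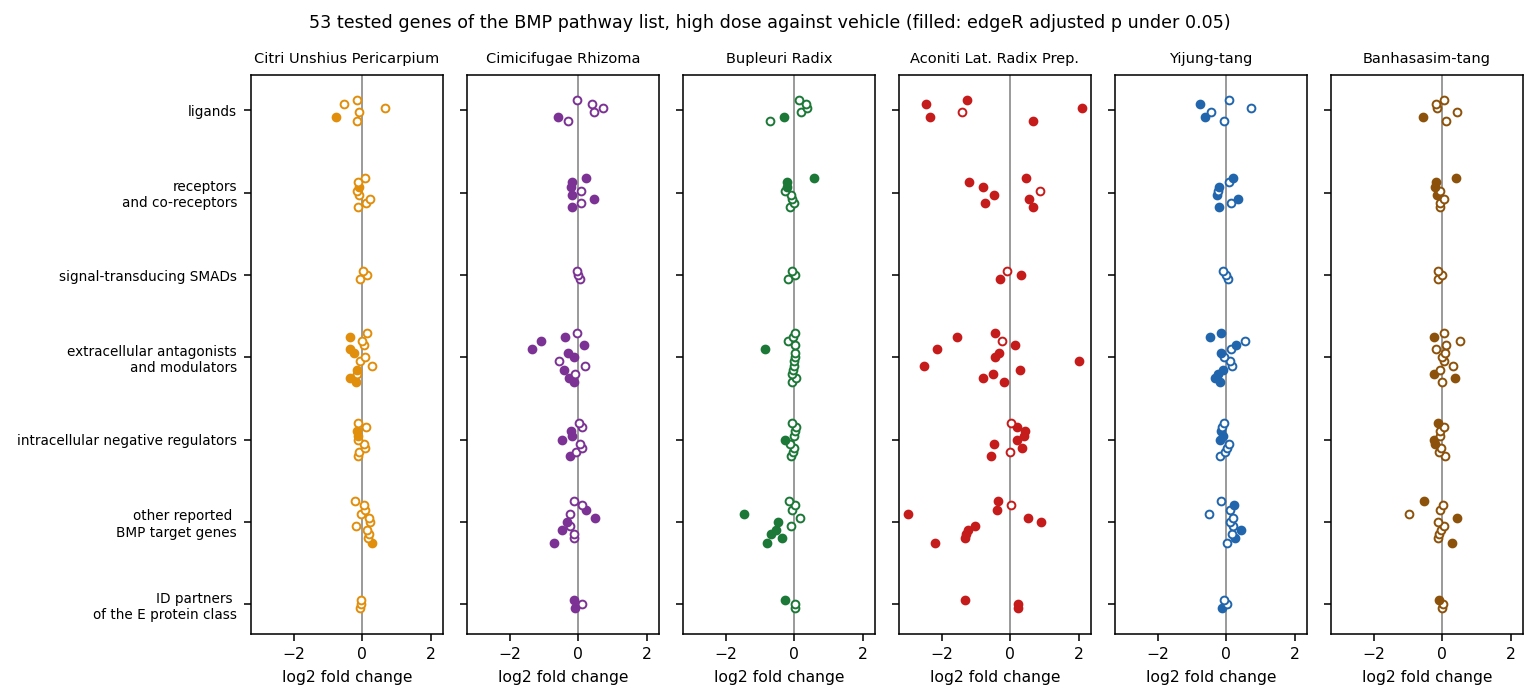
Log2 fold change (x axis) of the 53 tested BMP pathway genes outside the 9 members, in rows by role, for 6 extracts at the high dose against vehicle. Filled points passed the test. Aconiti Lateralis Radix Preparata has 46 filled points, against 11 for Citri Unshius Pericarpium.

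Which genes ran most like the 4 members chosen for their fall was asked over the 18 extract and dose groups, with group means centred within a set and 11115 genes ranked. ID2 was most like ATOH8 (Pearson r = 0.994), then SMAD6 (0.977) and MALL (0.960). ID3 was most like RASA4 (0.946), then PGF and ID1 (both 0.943). SMAD9 was most like ID3 (0.915), PGF (0.914) and RASA4 (0.903), and DLX3 like PGF (0.955), GOLIM4 (0.936) and ID3 (0.935). Within the set, ID2 ran against GREM1 (-0.878) and SMAD7 was less close to ID2 (0.646). The points share sets, libraries and the large difference of Aconiti Lateralis Radix Preparata at the high dose, so these values are a description. In a culture, fewer cells expressing a gene and less RNA of it per cell cannot be told apart.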

How the data were processed

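The authors deposited expected counts per gene, the estimates that RSEM gives, for 60 libraries. Per the submitters' processing notes, reads were aligned and counted with tools that include STAR 2.7.3a and RSEM 1.3.3, beside Trim Galore 0.6.5 and FastQC 0.11.9, on hg38/GRCh38. No source used here gives the annotation release, the strand setting or any read filter. Per the labels' protocols, libraries were made with a directional MGI mRNA kit and sequenced as paired ends. Of the deposited values 9.22% were not whole, and they were rounded here before testing.

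edgeR 4.0.16 in R 4.3.3 (glmQLFit, glmQLFTest) was fitted to 57 libraries in 19 groups after filterByExpr, with TMM factors, and calls were made where the Benjamini-Hochberg adjusted p over 17190 genes was under 0.05. The SE is the log2 fold change divided by the root of the F statistic. CPM levels used TMM factors over all 60 libraries. Bojungikgi-tang, the medium dose and the low dose against vehicle were described without a test. Pathway genes were named when called in the same direction against vehicle and against the low dose, at most 4 per extract by size, and likeness was ranked over genes of at least 5 CPM. For some of the named pathway genes, values with further extracts are given outside this rule. A gene that this rule names is not reported here. Intervals of count ratios are exact binomial at 95%.

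The members and lists were chosen with earlier results of these data known. Nothing in the labels says whether replicates were separate cultures, so the p-values cover only the spread of these samples, and that spread may be technical. The labels give 0.1% DMSO for the vehicle, whereas the design text gives 2%. Replicate libraries differed from each other by more than sampling noise (chi-square per degree of freedom 1.74 to 21.9).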

Additional observations from a re-analysis of the deposited data

Results flagged for a closer look

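The change between the low and the high dose differed between the 2 extracts of a set for the following members, each value being the difference of the 2 log2 changes, with the edgeR test of that difference. Citri Unshius Pericarpium minus Cimicifugae Rhizoma gave 0.787 for ID1, 1.501 for ID4, 0.684 for SMAD6 and 0.605 for SMAD7. For ID3 (1.19) and SMAD9 (1.107) all high-dose libraries lay above the low-dose ones with Citri Unshius Pericarpium and below with Cimicifugae Rhizoma, and this difference was not tested. Bupleuri Radix minus Aconiti Lateralis Radix Preparata gave 0.849 for ID1, 0.7 for ID4, 1.349 for SMAD6 and -1.483 for GREM1. Yijung-tang minus Banhasasim-tang gave 0.333 for ID1, 0.346 for SMAD7 and -0.314 for GREM1, and for DLX3 (0.707, not tested) the high-dose libraries lay above the low-dose ones with Yijung-tang and below with Banhasasim-tang. The adjusted p-values stand in the report.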

How the results depend on the processing

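The alternatives were median-of-ratios size factors, no filter on low counts, no shared spread, DESeq2, the replicate block, leaving out each library, leaving out both libraries that stood apart, a difference of log2(CPM + 1) means and, chosen after seeing the data, library totals alone. Fitted with only the groups compared, the pathway list counts were 19 for Citri Unshius Pericarpium high against vehicle (11 in the joint fit) and 4 for high against low (12), 17 for Cimicifugae Rhizoma high against vehicle (27) and 10 for high against low (22), 5 for Citri Unshius Pericarpium against Cimicifugae Rhizoma at high (13), and 14 for Yijung-tang against Banhasasim-tang at high (24). The cause was not tested. Without both libraries that stood apart, Citri Unshius Pericarpium high against vehicle gave 17. Leaving out 1 library gave 6 to 13 for Citri Unshius Pericarpium high against low (6 without high replicate 2) and 8 to 11 for Bupleuri Radix high against low (13 in full, 8 without high replicate 3).

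Values near 0 changed sign. Leaving out 1 library, the log2 fold change ranged from -0.117 to 0.006 for SMAD7 with Citri Unshius Pericarpium against vehicle, from -0.069 to 0.076 (vehicle) and -0.087 to 0.055 (low dose) for ID4 with Yijung-tang, from -0.012 to 0.047 for SMAD6 between high and low Yijung-tang, from -0.086 to 0.048 for SMAD6 with Banhasasim-tang against vehicle, from -0.078 to 0.041 for SMAD7 between Bupleuri Radix and Aconiti Lateralis Radix Preparata at high and from -0.074 to 0.043 for their high-minus-low changes, and from -0.09 to 0.058 for GREM1 between the changes of Citri Unshius Pericarpium and Cimicifugae Rhizoma. The last was 0.11 without both libraries that stood apart, and SMAD6 with Banhasasim-tang was 0.005 with no filter. With library totals alone, ID4 between high and low Yijung-tang was 0.018, and the 2 SMAD7 values were 0.104 and 0.071. No called member value changed sign under any alternative run.

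Library totals alone moved the median of all genes by -0.128 for Aconiti Lateralis Radix Preparata high against vehicle, and the calls to 3892 higher and 6662 lower (5413 and 4973 with TMM). For Cimicifugae Rhizoma they were 3723 higher and 1897 lower (2589 and 3003), and for Citri Unshius Pericarpium 2484 and 1245 (1688 and 2032). Replicate numbers did not pair the samples (correlations of deviations from -0.056 to 0.108), and the replicate block changed no call of a tested member. It moved some list counts, all within 1.5 times: Citri Unshius Pericarpium had 13 high against vehicle and 15 high against low, and Aconiti Lateralis Radix Preparata 47 high against vehicle. Depth limits, among others, ID4, SMAD9 and DLX3 of the members and GDF5, NOG, MSX2 and DAND5 of the list.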

Other observations

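SMAD6 at the low dose lay 0.09 to 0.29 above the vehicle on the log2 scale with each of the 6 replicated extracts, and 2 of the 3 vehicle libraries (15.9 and 16.5 CPM) were higher than the third (13.5 CPM). No test was made, since the low dose against vehicle is a description here and the set differs.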
